A study of Mus musculus with 5 samples.

Results

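The tetraspanins are a family of small membrane proteins with 4 transmembrane stretches, and the L6 proteins, named Tm4sf, are a separate family with a similar layout. Members were chosen by gene symbol, as every probe set with a single platform symbol beginning with Tspan or Tm4sf, together with Cd9, Cd37, Cd53, Cd63, Cd81, Cd82, Cd151, Upk1a and Upk1b. This gave 33 genes with 1 probe set each, among 21640 probe sets with a single symbol and 34760 in the table. The family was singled out with the fall of Tm4sf1 already known, so the values of Tm4sf1 are described without a test. The other 32 members entered through their symbols alone. Of the 33 genes, 29 had a mean signal above the low-value filter, and Tspan6, Tm4sf20, Cd53 and Tspan32 did not.

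Expression was measured in MLE-15, a mouse lung epithelial tumour line immortalised by SV40 large tumour antigen under the promoter of human surfactant protein C. All 5 cultures received a lentivirus with a GFP reporter and were selected with puromycin. The controls thus share the vector, the infection and the drug. The recorded settings were also the same in both groups. Virus was left on the cells for 16 h (MOI, the ratio of virus to cells, 50). The additive polybrene was used at 5 µg/ml, and puromycin at 5 µg/ml over 6 days. In 3 cultures the virus carried an shRNA against Grhl2 (V2LMM_20130), which encodes a transcription factor of epithelia, and in 2 it carried a non-silencing shRNA (RHS4346). Each culture is labelled an independent transduction of the same line, and 1 hairpin against Grhl2 is named, so effects of the hairpin and of lower Grhl2 cannot be told apart. The study asked which genes depend on Grhl2 in lung epithelium.

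Tetraspanins gather partner proteins into patches of membrane. Cd9, Cd81, Cd82 and Cd151 bind integrins and immunoglobulin-fold proteins, and Cd63 travels through endosomes and is carried on exosomes. The TspanC8 subgroup, named for the cysteines of its large outer loop, escorts the protease Adam10 to the cell surface, where Adam10 cuts Notch receptors and cadherins. Upk1a and Upk1b build the uroplakin plaques of the bladder lining, Tspan12 belongs to the Norrin receptor of vessels, and Cd37, Cd53 and Tspan32 are mainly leukocyte proteins. Tm4sf1, the founding L6 protein, is abundant on many carcinoma and endothelial cells and is linked to cell migration.

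The targeted gene itself had a slightly lower signal. Grhl2 had log2 values of 7.43, 7.43 and 7.60 under the shRNA and 7.77 and 7.68 in the control, which left 85.0% of the control signal (95% interval 76.4 to 94.5%, limma adjusted p = 0.082). The Grhl2 difference stayed between −0.29 and −0.19 under all alternative settings. It passed with a 50th percentile filter (limma adjusted p = 0.032), a trended robust prior (0.023) or without shRNA replicate 3 (0.047). It did not pass with no filter (0.139) or without shRNA replicate 1 (0.170) or 2 (0.201). Array medians lay between 5.29 and 5.32. The 10 lung epithelial markers examined (among them Cdh1, Epcam, Krt8, Nkx2-1, Sftpb and Sftpc) all passed the filter, with means of 6.83 to 12.1. Of these 10, 1 passed an adjusted p under 0.05 (10%, against 6.38% of all genes tested). This was Napsa, a protease that processes surfactant protein B, which rose by 0.36 (limma adjusted p = 0.010). Of the 10, 7 were below 0 and 3 above. Abca3 was lower on every shRNA array and did not pass (log2 fold change −0.17, limma adjusted p = 0.060). Leukocyte markers gave means of 2.86 to 5.16 over 8 probe sets, 4 of them below the filter, and endothelial markers 3.34 to 4.82 over 5. Averaged over the list, the leukocyte markers read 4.08 to 4.16 under the shRNA and 4.10 to 4.11 in the control. Fibroblast markers gave means of 2.15 to 7.73 over 6 probe sets, 1 of them below the filter. Their list average was 5.41 to 5.51 under the shRNA and 5.36 to 5.37 in the control. Tyrobp, a myeloid adaptor, rose among the 4 tested leukocyte genes (log2 fold change 0.28), of which 2 were above 0 and 2 below. Dcn, the matrix proteoglycan decorin, rose among the 5 tested fibroblast genes (0.70), of which 1 was above 0 and 4 below. The part of such cells in the results was not tested.

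The promoters of the members described first are shown because the knocked-down protein binds DNA. Grainyhead factors recognise the palindrome AACCGGTT. The windows below run from 250 bases before to 50 bases after the RefSeq start (GRCm38.p6, 5′ to 3′ on the gene's strand). Capitals mark AACCGG on either strand, which is also each end of the full palindrome. They belong to Tm4sf1 (chr3:57301939-57302238, minus strand), Tspan17 (chr13:54789155-54789454, plus strand), Tspan33 (chr6:29693964-29694263, plus strand) and Tspan11 (chr6:127887372-127887671, plus strand).
Tm4sf1: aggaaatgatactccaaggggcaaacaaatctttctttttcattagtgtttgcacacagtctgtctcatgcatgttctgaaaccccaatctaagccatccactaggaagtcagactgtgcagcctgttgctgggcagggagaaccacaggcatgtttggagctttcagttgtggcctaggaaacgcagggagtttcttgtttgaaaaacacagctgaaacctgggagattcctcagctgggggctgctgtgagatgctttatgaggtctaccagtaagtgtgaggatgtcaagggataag
Tspan17: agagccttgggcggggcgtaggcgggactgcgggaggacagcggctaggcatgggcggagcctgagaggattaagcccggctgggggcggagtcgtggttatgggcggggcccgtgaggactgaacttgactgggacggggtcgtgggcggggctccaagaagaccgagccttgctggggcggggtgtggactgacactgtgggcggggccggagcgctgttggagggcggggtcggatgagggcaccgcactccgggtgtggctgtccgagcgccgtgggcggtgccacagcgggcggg
Tspan33: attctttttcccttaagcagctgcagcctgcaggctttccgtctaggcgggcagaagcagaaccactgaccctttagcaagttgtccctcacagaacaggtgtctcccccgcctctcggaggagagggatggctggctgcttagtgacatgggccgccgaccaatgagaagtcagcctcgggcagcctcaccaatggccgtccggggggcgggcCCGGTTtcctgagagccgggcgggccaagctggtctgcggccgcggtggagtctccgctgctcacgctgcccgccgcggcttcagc
Tspan11: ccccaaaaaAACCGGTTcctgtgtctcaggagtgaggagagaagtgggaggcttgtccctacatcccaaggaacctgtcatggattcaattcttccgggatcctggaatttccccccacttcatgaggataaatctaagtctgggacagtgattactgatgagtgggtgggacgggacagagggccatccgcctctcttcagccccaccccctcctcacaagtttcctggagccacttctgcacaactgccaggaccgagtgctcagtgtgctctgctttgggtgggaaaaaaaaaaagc

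The window of Tspan11, chosen for display because it alone among the members held the whole palindrome, matched at its upstream end. Of all 32851 RefSeq windows of this length, 0.146% held AACCGGTT, against 1 of 40 windows from the 30 members that had one. Allowing any base at the fifth position (AACCNGTT, both strands) added Cd151, and 2.09% of all windows matched. The shorter AACCGG lay in 7 of the 40 member windows, from Cd37, Cd82, Tspan11, Tspan2, Tspan33 and Tspan6, and in 6.83% of all windows. In Tspan33 its match began at position −36 relative to the start. Neither the Tm4sf1 nor the Tspan17 window contained AACCGG. These windows also differ in composition, with 47.3% G and C in Tm4sf1 and 72% in Tspan17, which held 10 copies of the GC box GGGCGG (either strand). A GC box lay in 35.7% of all windows and in 15 of the 40 member windows, and none was present in the window of Tm4sf1.

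Tm4sf1 was the member that fell furthest. Its log2 values were 6.87, 6.85 and 6.83 under the Grhl2 shRNA and 7.81 and 7.53 in the control. The 3 shRNA arrays lay within a narrow band, well under both controls, and the controls differed from each other by more than the shRNA arrays did. The means were 6.85 ± 0.02 (SD, n = 3) and 7.67 ± 0.20 (SD, n = 2), a log2 fold change of −0.82 (SE 0.080), so that 56.7% of the control signal remained. In RNA from a whole culture, fewer cells with a transcript and less of it per cell cannot be told apart. Leaving out control replicate 1 gave −0.68, and leaving out control replicate 2 gave −0.96.

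The other L6 genes had weak signals and smaller differences. Tm4sf4, a neighbour of Tm4sf1 in the RefSeq gene order, read 4.66, 4.61 and 4.61 against 4.73 and 4.82. Its groups did not overlap, yet the log2 fold change of −0.15 (SE 0.047) missed the threshold (limma adjusted p = 0.107). Tm4sf5, a tetraspan protein of liver and gut epithelia, read 5.45, 5.29 and 5.46 against 5.45 and 5.44, and its groups overlapped (log2 fold change −0.04, limma adjusted p = 0.75). Tm4sf19 was at 4.21, 4.53 and 4.50 against 4.50 and 4.51, where shRNA replicate 1 alone was low (log2 fold change −0.09, limma adjusted p = 0.62). Tm4sf20 was below the filter, at 3.10 to 3.17 and 2.91 to 3.11.

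**Figure D1:**
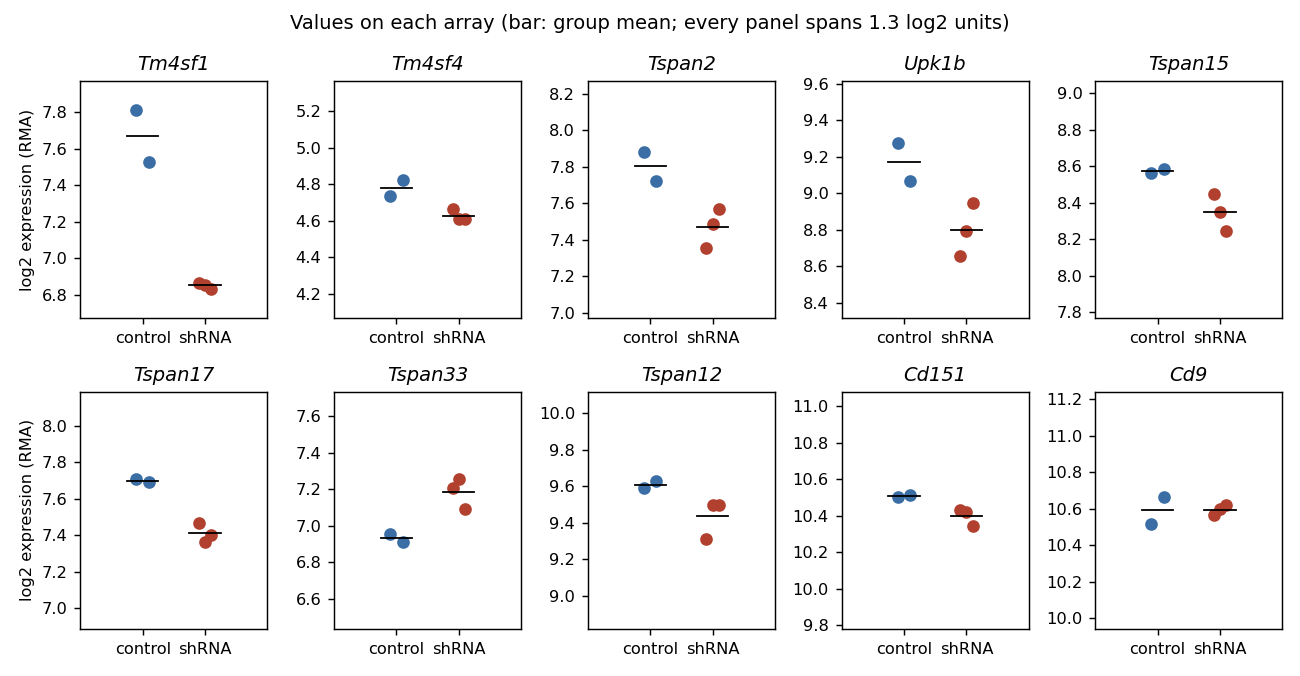
Log2 expression (RMA, vertical axis) of 10 members on each of the 2 control and 3 Grhl2 shRNA arrays, with a bar at each group mean and the same span in every panel. Tm4sf1 drops by 0.82, Tspan33 is the only gene shown whose shRNA values all exceed the controls, and the Cd9 groups overlap.

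Across the tested members other than Tm4sf1, 2 of 28 passed the threshold of an adjusted p under 0.05 over all genes, 1 higher and 1 lower. That is 7.14%, where 6.38% of all 14979 genes passed (2.86% higher, 3.52% lower), so the share was near that of genes at large. Their median log2 fold change was −0.042, against 0.0020 over all genes, with 18 below 0 and 10 above (50.9% of all genes were above 0). The groups did not overlap in 13 of the 28 (4 higher, 9 lower), or 46.4%, against 41.5% of all genes (21% higher, 20.5% lower). Without shRNA replicate 1 the median was −0.015. The number past the threshold was 1 without shRNA replicate 1 or 3 and 0 without shRNA replicate 2 or either control, where 7, 5 and 5 members had an unadjusted limma p under 0.05.

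**Figure D2:**
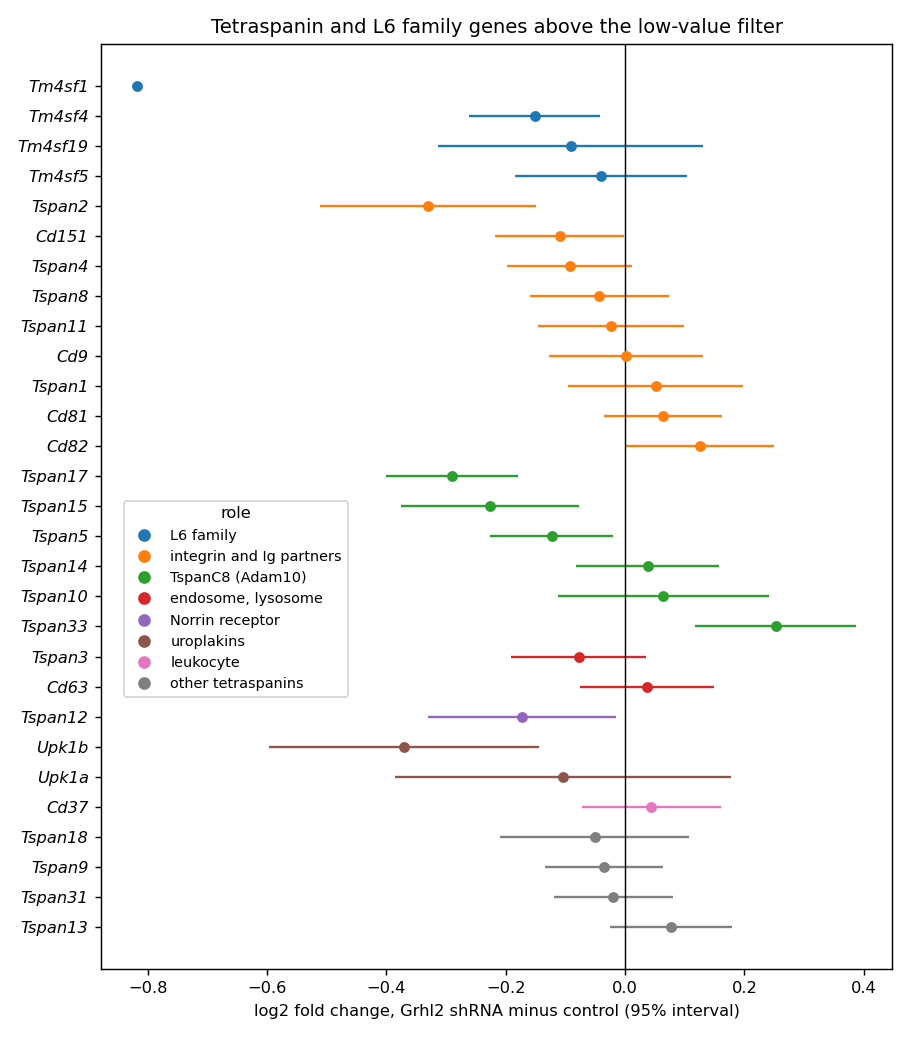
Log2 fold change (Grhl2 shRNA minus control, horizontal axis) for the 29 members above the low-value filter, coloured by role, with a 95% interval for each but Tm4sf1, which is shown without one. Tm4sf1 stands at −0.82, and the other 28 lie between −0.37 and 0.25.

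Both members that passed, 1 lower and 1 higher, belong to the TspanC8 subgroup, the escorts of Adam10. That is 2 of its 6 genes (33.3%, against 6.38% of all genes). The subgroup lists were drawn up with earlier results of these data known, so this share is a description and not an independent test. Tspan17 read 7.47, 7.36 and 7.40 under the shRNA and 7.71 and 7.69 in the control, with no overlap and close controls. It fell by 0.29 on the log2 scale (SE 0.047, limma adjusted p = 0.020), to 81.8% of the control. Tspan33, known from red cell precursors and activated B cells, read 7.21, 7.26 and 7.09 against 6.95 and 6.91. All 3 shRNA values lay above both controls, and it rose 1.19-fold (log2 fold change 0.25, SE 0.057, limma adjusted p = 0.049).

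These calls rested on the full set of arrays. The Tspan17 call held without shRNA replicate 1 (limma adjusted p = 0.034) and ended without shRNA replicate 2 (0.066), shRNA replicate 3 (0.053), control replicate 1 (0.112) or control replicate 2 (0.115). For Tspan33 it held without shRNA replicate 3 (limma adjusted p = 0.040) and ended without any other array (0.111 to 0.220) and with no filter (0.091). Its value stayed between 0.22 and 0.30 in all of these.

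The 4 other TspanC8 genes did not pass. Tspan15, an escort that favours N-cadherin as a substrate, read 8.45, 8.35 and 8.25 against 8.56 and 8.59, lower on every shRNA array (log2 fold change −0.23, SE 0.063, limma adjusted p = 0.085). Under other settings Tspan15 passed with a 50th percentile filter (limma adjusted p = 0.033) or a trended robust prior (0.018). These settings passed 1708 and 2034 genes, where the main fit passed 956. Tspan15 did not pass with no filter (0.142), with the replicate block (0.174) or without any 1 shRNA array (0.057 to 0.187). Tspan5 read 9.15, 9.11 and 9.08 against 9.25 and 9.23, also without overlap (log2 fold change −0.12, limma adjusted p = 0.149). Tspan14 and Tspan10 overlapped between groups, with log2 fold changes of 0.04 and 0.06 (limma adjusted p = 0.71 and 0.67). The subgroup was therefore mixed: 3 of its 6 genes had values below 0 and 3 above, from −0.29 to 0.25.

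The protease and its substrates form a list of 10 genes, chosen with earlier results of these data known. Adam10 read 9.92, 9.97 and 10.00 under the shRNA against 10.11 and 10.14, lower on each shRNA array. Its log2 fold change of −0.16 (SE 0.044) missed the threshold (limma adjusted p = 0.079). Under other settings Adam10 passed with a 50th percentile filter (limma adjusted p = 0.030) or a trended robust prior (0.0096). With no filter it did not (0.142). Adam17, the related sheddase, was at 0.07 (limma adjusted p = 0.43). Btc, among the substrates, was higher on each shRNA array and also missed the threshold (log2 fold change 0.20, SE 0.050, limma adjusted p = 0.063). In this list 7 genes were below 0 and 3 above. Of the 10 genes, 3 fell, 0 rose and 7 did not pass, or 30% against 6.38% of all genes, with a median of −0.052. That share describes the list and is not an independent test.

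The 3 that fell were Notch1, Notch2 and Cdh2, all known targets of Adam10 cleavage. Notch1, a receptor for Delta and Jagged ligands, read 8.06, 8.18 and 8.21 against 8.52 and 8.47 (log2 fold change −0.34, SE 0.057, limma adjusted p = 0.021). Notch2 read 9.05, 9.10 and 9.12 against 9.33 and 9.29 (log2 fold change −0.23, SE 0.044, limma adjusted p = 0.032). Cdh2, N-cadherin, read 5.50, 5.13 and 5.35 against 6.06 and 5.80 (log2 fold change −0.60, SE 0.12, limma adjusted p = 0.032). No group of these overlapped. Cdh1, E-cadherin, was at −0.07 (limma adjusted p = 0.32) and Notch3 at −0.03 (limma adjusted p = 0.86). The Notch1 call held without shRNA replicate 1 or 3 and that of Cdh2 without shRNA replicate 1, and each ended without any other array. The Notch2 call ended whichever array was left out (limma adjusted p = 0.059 to 0.163).

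**Figure D3:**
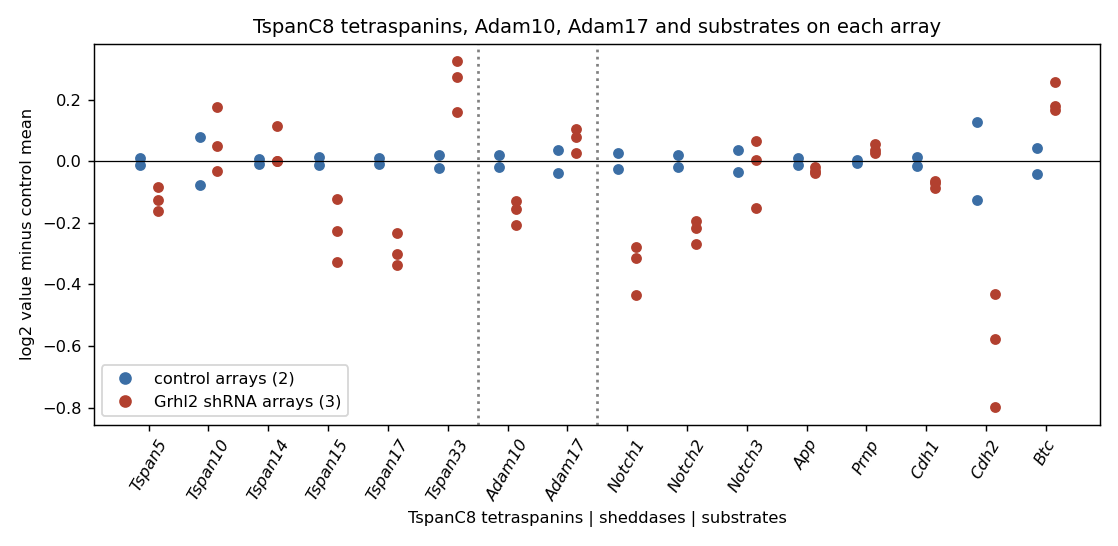
Log2 value minus the control mean (vertical axis) for the 6 TspanC8 genes, the sheddases Adam10 and Adam17 and 8 substrates on each array, with controls in blue and Grhl2 shRNA in red. Every red point lies below both blue ones for Tspan5, Tspan15, Tspan17, Adam10, Notch1, Notch2, App, Cdh1 and Cdh2. Each lies above them for Tspan33, Prnp and Btc, while the groups overlap for the rest. Groups did not overlap in 41.5% of all genes tested.

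None of the 9 tetraspanins that pair with integrins and immunoglobulin proteins passed. The nearest was Tspan2, a neural and haematopoietic relative of Cd9, with 7.36, 7.49 and 7.57 under the shRNA against 7.88 and 7.72. Its groups were separate, with a log2 fold change of −0.33 (SE 0.076, limma adjusted p = 0.052). Its limma adjusted p passed with quantile normalization repeated (0.049), weighted arrays (0.044), a 50th percentile filter (0.017) or a trended robust prior (0.0074). With 1 array left out it ranged from 0.056 to 0.233, and with all probe sets tested together it was 0.255.

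Cd9, Cd81 and Cd151, the widely expressed members of that group, had small differences that did not pass. Cd9 read 10.56, 10.60 and 10.62 against 10.52 and 10.67, where the shRNA values lay between the controls (log2 fold change 0.0019, 95% interval −0.13 to 0.13). Cd81 read 10.99, 10.96 and 10.92 against 10.89 and 10.89, higher on every shRNA array (log2 fold change 0.06, limma adjusted p = 0.42). Cd151, the laminin-integrin tetraspanin, read 10.43, 10.42 and 10.34 against 10.50 and 10.52. It was lower on every shRNA array (log2 fold change −0.11, SE 0.046, limma adjusted p = 0.21).

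Cd82, called a metastasis suppressor in carcinoma, read 8.13, 8.21 and 8.27 against 8.09 and 8.06. It differed in the other direction, higher on every shRNA array (log2 fold change 0.13, SE 0.052, limma adjusted p = 0.21). Tspan4, a tetraspanin of migrasomes, read 10.27, 10.25 and 10.19 against 10.32 and 10.34 (log2 fold change −0.09, limma adjusted p = 0.27). Tspan1, Tspan8 and Tspan11 overlapped between groups, at 0.05, −0.04 and −0.02. Tspan11, whose window held the whole palindrome, had a 95% interval of −0.15 to 0.10 around its −0.02. Its mean signal of 5.41 lay at percentile 43.4 of the probe sets with 1 symbol. Use of the site was not tested.

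The lists of surface partners were also chosen with earlier results of these data known. Among these partners, 2 of 10 integrin subunits passed and 1 of 11 immunoglobulin and adhesion proteins, where 6.38% of all genes did. Of the 10 integrin subunits, Itga5, the fibronectin receptor chain, rose by 0.24 (SE 0.049, limma adjusted p = 0.038), and Itgb6, an epithelial subunit that activates TGF-beta, fell by 0.50 (SE 0.092, limma adjusted p = 0.029), while 8 did not pass. Itga3 and Itgb1, which together bind Cd151, differed by −0.05 and 0.02 (limma adjusted p = 0.68 and 0.80). Among the 8, Itga2 and Itga6 were higher on every shRNA array (0.26 and 0.20, limma adjusted p = 0.072 and 0.084). Itgb4 was lower on every one (−0.13, limma adjusted p = 0.104). Groups did not overlap in 7 of the 10 (4 higher, 3 lower), against 41.5% of all genes. This list's median was 0.013. The Itga5 call ended whichever array was left out, and that of Itgb6 held without shRNA replicate 3 alone.

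Of the immunoglobulin and adhesion partners, Vcam1 fell and 10 did not pass, with a median of −0.0077. Vcam1, an endothelial and epithelial adhesion receptor for leukocytes, read 7.88, 7.91 and 7.81 against 8.31 and 8.10 (log2 fold change −0.34, SE 0.070, limma adjusted p = 0.038), and its call ended whichever array was left out. Igsf8 and Ptgfrn, the immunoglobulin proteins that bind Cd9 and Cd81 most directly, went opposite ways at −0.11 and 0.06 (limma adjusted p = 0.20 and 0.46).

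Both uroplakin tetraspanins passed the filter, and neither passed the test. Upk1b read 8.65, 8.79 and 8.95 under the shRNA against 9.27 and 9.06, with every shRNA array under both controls. Its log2 fold change of −0.37 (SE 0.096) was the second most negative of the members and missed the threshold (limma adjusted p = 0.070). Under other settings Upk1b passed with a 50th percentile filter (limma adjusted p = 0.026) or a trended robust prior (0.022). Those settings passed 1708 and 2034 genes, against 956 in the main fit. Upk1b did not pass with no filter (0.118), with the replicate block (0.089) or without any 1 shRNA array (0.053 to 0.159). Upk1a read 7.47, 7.78 and 7.89 against 7.89 and 7.74 and overlapped (log2 fold change −0.10, limma adjusted p = 0.66). The plaque partners Upk2, Upk3a and Upk3b did not pass, at −0.20, 0.11 and −0.02, with signals of 4.82 to 5.71 on all arrays.

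Cd63, the endosomal tetraspanin, read 10.66, 10.70 and 10.65 against 10.58 and 10.68 and overlapped (log2 fold change 0.04, 95% interval −0.08 to 0.15). Tspan3 was at −0.08 (limma adjusted p = 0.39). None of the 12 sorting and vesicle-release genes examined beside them, among them Sdcbp, Pdcd6ip, Tsg101 and Rab27a, passed, and their median was −0.013. Of these, 7 were below 0 and 5 above. The furthest from 0 was Rab27b, lower on each shRNA array (log2 fold change −0.17, limma adjusted p = 0.075). Tspan12 read 9.31, 9.50 and 9.50 against 9.59 and 9.63, lower on each shRNA array (log2 fold change −0.17, SE 0.067, limma adjusted p = 0.18). Its receptor partners Fzd4, Lrp5 and Lrp6 were at −0.05, −0.0070 and −0.03, and none passed.

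Of the 3 leukocyte tetraspanins, Cd37 alone passed the filter. Cd37 read 5.05, 5.10 and 5.04 against 5.07 and 4.97 and overlapped (log2 fold change 0.04, limma adjusted p = 0.65). Cd53 and Tspan32 lay below the filter, at 3.80 to 4.06 against 3.42 to 3.93 and at 3.58 to 3.67 against 3.74 and 3.75. Of the other tetraspanins tested, Tspan31, next to Cdk4 in the gene order, read 11.17, 11.22 and 11.18 against 11.19 and 11.23 (log2 fold change −0.02, limma adjusted p = 0.83). Tspan9, Tspan13 and Tspan18 were at −0.03, 0.08 and −0.05, and none passed, though Tspan13 was higher on every shRNA array.

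In the RefSeq order of protein-coding genes, Tspan18 is next to Cd82, Tspan9 next to Tspan11, and Tspan32 next to Cd81. Tspan18 was at −0.05 where Cd82 was at 0.13, and Tspan9 and Tspan11 were at −0.03 and −0.02. Tspan32 lay below the filter. In the pair of L6 genes, Tm4sf4 was at −0.15 beside −0.82 for Tm4sf1, the same sign with a smaller size.

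The partner lists were chosen with earlier results of these data known, so their shares are descriptions. Over all 57 partner genes listed, 55 were tested, of which 1 rose and 5 fell, or 10.9% against 6.38% of all genes. Their median was −0.0077. Leaving out 1 array at a time left 0 to 2 of them past the threshold: 2 without shRNA replicate 1 or 3, and 0 without shRNA replicate 2 or either control, where 15, 12 and 16 had an unadjusted limma p under 0.05. Prph2 and Rom1, photoreceptor proteins with the tetraspanin fold but other symbols, were at 0.24 and −0.00076 and did not pass (limma adjusted p = 0.37 and 0.997).

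**Figure D4:**
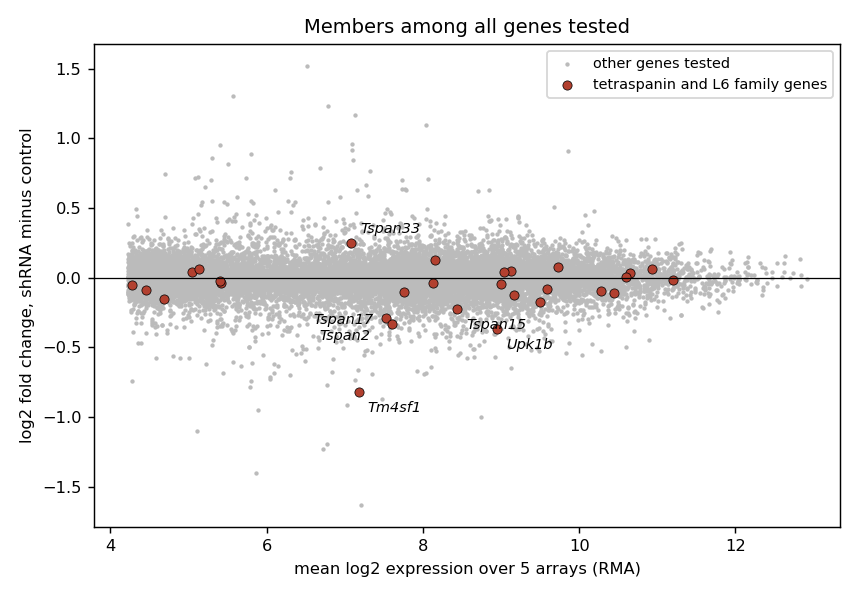
Log2 fold change (vertical axis) against the mean log2 expression over 5 arrays (horizontal axis) for the 14979 genes tested in grey and the 29 members above the filter in red. Tm4sf1 is at −0.82 and the other 28 members lie between −0.37 and 0.25, where all genes tested range from −1.63 to 1.52.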

How the data were processed

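RNA from 5 MLE-15 cultures was hybridised to arrays, 1 biotin-labelled sample each. The authors deposited log2 values; the submitters' processing notes name RMA and Affymetrix Expression Console. Their versions and the build were not given in the sources used here. A base of log2 rests on the RMA method and the values' range. RMA equalises array distributions, so a shift common to most genes would not show. Probe sets were named from the platform annotation, and all 33 members matched RefSeq.

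Probe sets with 1 symbol were kept if their mean over the 5 arrays reached 4.22, the 25th percentile, and the brightest probe set stood for each gene. Groups were compared with limma 3.58.1 (lmFit, eBayes) in R 4.3.3, two-sided, with Benjamini-Hochberg adjustment over 14979 genes and a threshold of 0.05. Values are means ± SD, and differences are shRNA minus control with the moderated SE. The number of arrays limits precision. Members, lists and the rule for named genes (all L6, TspanC8, uroplakin and leukocyte members, called members, the 6 with the strongest signals, those with an absolute log2 fold change of at least 0.2, called partners, and Adam10, Itga3, Itgb1, Igsf8 and Ptgfrn) were chosen with earlier results of these data known. Other members and partners were named after their values were seen. RMA signals of different probe sets do not rank transcripts by abundance. Alternatives covered the filter, normalization, probe set choice, variance prior, array weights, replicate block, threshold and each array left out.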

Additional observations from a re-analysis of the deposited data

How the results depend on the processing

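Tspan17 stayed below 0 and Tspan33 above 0 under all 15 alternatives. Of 34 genes followed, 25 kept their sign in every alternative that gave them a value (14 for Cdh2, Itgb6 and Tm4sf4, which the 50th percentile filter removed); the other 9 were small differences that passed in no setting. Genes past the threshold numbered 956, members other than Tm4sf1 2, and partners 6. With no filter these were 418, 1 and 1, with a 50th percentile filter 1708, 5 and 12, with a trended robust prior 2034, 5 and 15, and at an adjusted p under 0.1 they were 1851, 5 and 13. With all probe sets tested together limma called 0, 0 and 0, where 4515, 7 and 16 had an unadjusted p under 0.05. With the replicate block the counts were 172, 0 and 2, with 6 members and 15 partners at an unadjusted limma p under 0.05. Same-numbered samples correlated at r = 0.057 and 0.019 in their deviations from group means, across genes. With 2 controls the control deviations mirror each other, so these values do not settle whether the numbers pair the samples. Leaving out 1 array gave 67 to 493 genes, 0 to 1 members, 0 to 2 partners and a members' median of −0.050 to −0.015. Without a control, the lone control was assumed to vary like the other group. Tm4sf1 ranged from −0.96 to −0.68. The other causes were not tested; the filters and the joint test also change how many features are adjusted over. Weak signals near the filter (Tm4sf4, Tm4sf19, Tspan18) limit what can be seen there.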
